A study of Mus musculus with 16 samples.

Results

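Cathepsins are the proteases of the lysosome. The cathepsin genes examined here were the 10 rows of the expression table named Ctsa, Ctsb, Ctsc, Ctsd, Ctsf, Ctsh, Ctsk, Ctsl, Ctss and Ctsz, out of 55492 genes, chosen by symbol. All 10 were present and all 10 passed the filter on low values (a mean normalized count of at least 10 over all libraries), as did 20576 genes in all. RNA was sequenced from the left ventricle of 16 male C57BL/6 mice aged 8 to 12 weeks, 1 library per mouse. PKM2-/- mice lack exon 10 of Pkm, the exon specific to the PKM2 isoform of the glycolytic enzyme pyruvate kinase, in all tissues; it was removed with a CMV-Cre transgene that was later bred out, and the controls were PKM2fl/fl mice, which carry the floxed exon intact. Hearts were taken without surgery (baseline, 2 mice per genotype), 3 days after sham surgery (3 per genotype) or 3 days after myocardial infarction (MI) by ligation of the left anterior descending coronary artery (3 per genotype). No genetic or drug treatment was shared by all groups. A global deletion does not separate cardiomyocytes from the other cells of the ventricle.

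Cathepsins are made as inactive precursors, carried to the lysosome mostly by mannose 6-phosphate receptors, and activated there by cleavage at acidic pH. Most are cysteine proteases: cathepsins B, L, S, K and F cut within proteins, whereas B, C, H and Z also or only trim their ends. Cathepsin D is an aspartic protease and cathepsin A a serine carboxypeptidase that also protects lysosomal sialidase and beta-galactosidase. In the injured heart cathepsins are known from macrophages, which digest dead cells and matrix, and from cardiomyocytes, where they serve the breakdown of proteins and organelles by autophagy.

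The libraries held 20623769 to 71855101 reads assigned to genes, and the members had between 67 reads (the lowest library of Ctsk) and 38162 reads (the highest library of Ctsb). Reads that fell on rRNA-related loci made up a varying part of each library, on average 19.7% ± 3.46 (SD, n = 2) in PKM2fl/fl baseline, 22.2% ± 6.02 (n = 3) in PKM2fl/fl sham, 36.3% ± 14.2 (n = 3) in PKM2fl/fl MI, 41.9% ± 2.90 (n = 2) in PKM2-/- baseline, 34.8% ± 9.92 (n = 3) in PKM2-/- sham and 27.4% ± 9.92 (n = 3) in PKM2-/- MI. Pkm as a whole gene averaged 8662 ± 837 normalized counts in PKM2fl/fl sham and 13050 ± 1272 in PKM2-/- sham (SD, n = 3 each), with no overlap, but the difference did not pass (adjusted p = 0.17, limma). Of all genes 8.27% lay entirely higher in PKM2-/- after sham. At baseline Pkm averaged 9355 ± 349 in PKM2fl/fl and 12482 ± 709 in PKM2-/- (n = 2 each). After MI it averaged 10737 ± 1259 and 12594 ± 3130 (n = 3 each), with overlap. Neither of these differences passed. Reads summed over the gene also count the isoform without exon 10, so they do not check the deletion.

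The level of the cathepsins at rest is described first. Normalized counts were divided by the length of the canonical transcript, an approximation, so that genes could be compared with each other. Ctsd stood highest in every group, with 5375 normalized counts per kb in PKM2fl/fl baseline (range 5106 to 5645, n = 2) and 5524 in PKM2-/- baseline (5455 to 5593). Ctsb was next in every group, at 1240 per kb in PKM2fl/fl baseline and 1262 in PKM2-/- baseline. The order below them in PKM2fl/fl baseline was Ctsa (530.4 per kb), Ctsh (418.9), Ctsc (327), Ctsl (313.9), Ctsf (290.3), Ctss (192.7), Ctsz (121.3) and Ctsk (54.0), and only the neighbours Ctsc and Ctsl and the neighbours Ctsl and Ctsf overlapped in their ranges. In PKM2-/- baseline the order was the same except that Ctsl and Ctsc, whose ranges overlapped, changed places. The ranges leave out any error in the lengths used, which went from 1366 bases for Ctss to 5908 for Ctsl, so the order depends on the transcripts chosen. Ctsd made up 60.6% of the summed level of the 10 genes per kb in PKM2fl/fl baseline and Ctss 2.18%.

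Ctss held the third place of the 10 after sham and after MI. In PKM2fl/fl sham it had 558.8 per kb (range 413.4 to 745.4, n = 3) and in PKM2-/- sham 644.7 (545 to 835.6), and in both it overlapped with Ctsh, the next below. In PKM2fl/fl MI it had 3721 per kb (range 3491 to 4122, n = 3) and overlapped with Ctsb at 4301 (3988 to 4546), and Ctsf was the lowest of the 10 at 87.5 (53.0 to 105.6). The summed level of the 10 genes was 8864 per kb on average in PKM2fl/fl baseline, 10214 in PKM2fl/fl sham and 20798 in PKM2fl/fl MI, and 9028, 10688 and 22860 in the same groups of PKM2-/-. In PKM2-/- MI, Ctsd, Ctsb, Ctss and Ctsc held the first 4 places and Ctsf the last. The ranges of Ctsh, Ctsl and Ctsa overlapped between neighbours there. Ctss accounted for 17.9% of the sum in PKM2fl/fl MI and 17.7% in PKM2-/- MI.

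**Figure D1:**
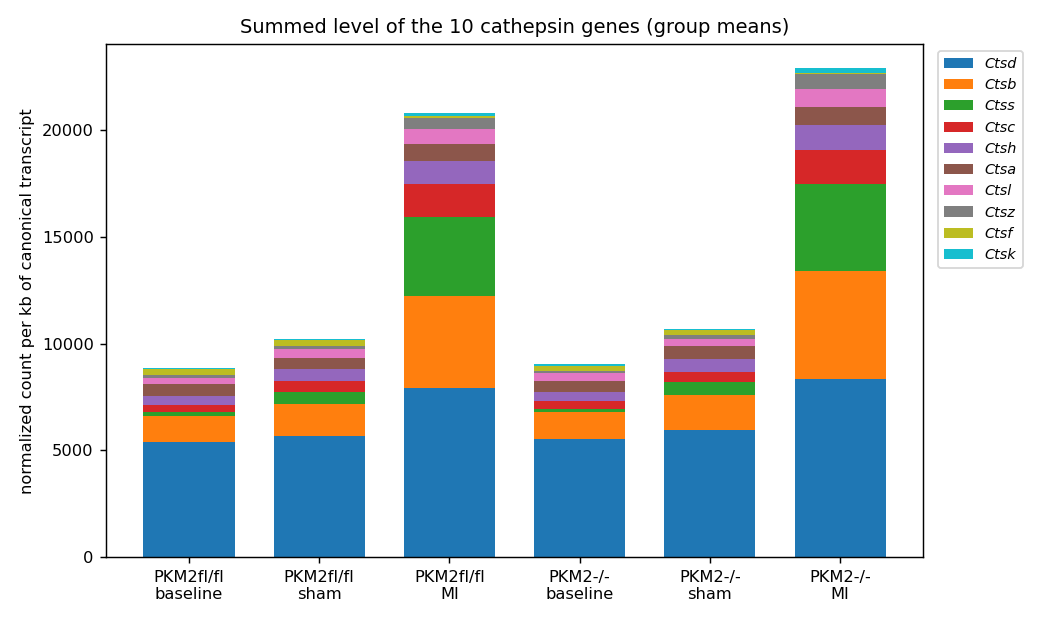
Stacked bars show the mean normalized count per kb of canonical transcript (y axis) of the 10 cathepsin genes in each of the 6 groups (x axis, 2 or 3 libraries each). The bars rise from 8864 to 20798 per kb in PKM2fl/fl and from 9028 to 22860 in PKM2-/-, with Ctsd at the base and a widened Ctss band after MI.

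A count of the members past the test was made for MI against sham. In PKM2fl/fl, 9 of the 10 cathepsin genes were higher and 1, Ctsf, was lower after MI at an adjusted p under 0.05 (limma on log2(normalized count + 1), Benjamini-Hochberg over 20576 genes), and in PKM2-/- the same 9 were higher and Ctsf was lower. Over all genes 24.8% were higher and 25.3% lower by the same rule in PKM2fl/fl, and 28.7% and 28.1% in PKM2-/-. With a change of at least 2-fold required as well, 5 members were higher and 1 lower in PKM2fl/fl, beside 12.4% and 11.1% of all genes, and 6 were higher and 1 lower in PKM2-/-, beside 14.5% and 14.3%. The median log2 fold change of the 10 members was 1.22 in PKM2fl/fl and 1.47 in PKM2-/-, against medians over all genes of -0.0025 and 0.010. For all 10 genes in both genotypes the 3 MI libraries did not overlap the 3 sham libraries. Over all genes the MI libraries lay entirely above the sham libraries for 30.0% and entirely below for 29.0% in PKM2fl/fl, and for 31.7% and 30.6% in PKM2-/-. In bulk tissue, fewer or more cells of a type and less or more RNA per cell cannot be told apart.

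Among the cysteine endopeptidases, Ctss changed most. Cathepsin S trims the invariant chain of class II antigen presentation and stays active at neutral pH. Its normalized counts were 707, 1018 and 565 in PKM2fl/fl sham and 4769, 4851 and 5630 in PKM2fl/fl MI, a log2 fold change of 2.77 ± 0.22 (SE), or 6.84-fold (adjusted p = 2.1e-07, limma). In PKM2-/- the sham hearts had 1141, 744 and 756 and the MI hearts 5595, 5564 and 5440, a log2 fold change of 2.68 ± 0.22 (adjusted p = 2.2e-07). Every MI heart was far above the highest sham heart of its genotype. Of all genes tested, 2.02% had a larger log2 fold change in PKM2fl/fl and 2.91% in PKM2-/-.

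Ctsb encodes the most abundant of the cysteine cathepsins here, an endopeptidase that also removes dipeptides from the C-terminal end. It had 7101, 8074 and 6189 normalized counts in PKM2fl/fl sham and 21714, 19051 and 20876 in PKM2fl/fl MI, a log2 fold change of 1.53 ± 0.12 (adjusted p = 2.9e-07, limma). In PKM2-/- it went from 8024, 7146 and 7824 to 27111, 24237 and 21093, with a log2 fold change of 1.65 ± 0.12 (adjusted p = 1.1e-07). The gain in normalized counts was larger than for any other member. Some reads of Ctsb may fall where its exons overlap Fdft1 on the opposite strand, which averaged 609 normalized counts over all libraries.

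Ctsk, known as the collagen-degrading enzyme of osteoclasts, had the lowest counts of the members in the sham hearts. Its 102, 127 and 84 normalized counts in PKM2fl/fl sham became 376, 245 and 267 after MI (log2 fold change 1.49 ± 0.24, adjusted p = 1.0e-04, limma). In PKM2-/- the sham values of 121, 88 and 99 became 383, 376 and 417 (log2 fold change 1.94 ± 0.24, adjusted p = 6.6e-06). Ctsk lies next to Ctss, at chr3:95499210-95509387 beside chr3:95526786-95556405 (GRCm38.p6), but per kb it stood at 156 against 3721 in PKM2fl/fl MI.

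Ctsl, an endopeptidase of general lysosomal protein breakdown, rose less. It had 2873, 2673 and 1872 normalized counts in PKM2fl/fl sham and 4622, 3627 and 4453 in PKM2fl/fl MI (log2 fold change 0.79 ± 0.17, adjusted p = 0.0014, limma). In PKM2-/- it had 2164, 1988 and 2094 after sham and 6422, 4775 and 4267 after MI (log2 fold change 1.29 ± 0.17, adjusted p = 1.6e-05). It was past 2-fold in PKM2-/- and not in PKM2fl/fl; the difference between the genotypes is tested further on.

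Ctsf was the member that fell. Cathepsin F is a cysteine endopeptidase with a long N-terminal extension that resembles a cystatin. Its normalized counts were 511, 529 and 559 in PKM2fl/fl sham and 213, 210 and 107 in PKM2fl/fl MI (log2 fold change -1.65 ± 0.20, adjusted p = 9.4e-06, limma). In PKM2-/- they were 521, 509 and 497 after sham and 130, 141 and 167 after MI (log2 fold change -1.80 ± 0.20, adjusted p = 2.7e-06). The highest of the 6 MI hearts had 213 and the lowest of the 10 other hearts 467. In the 16 libraries Ctsf correlated negatively with each of the other 9 members (Pearson r from -0.96 to -0.90 on log2(value + 1)), while the 36 pairs among those 9 had r from 0.86 to 0.995; all pairs share the libraries and their groups, so this is a description.

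**Figure D2:**
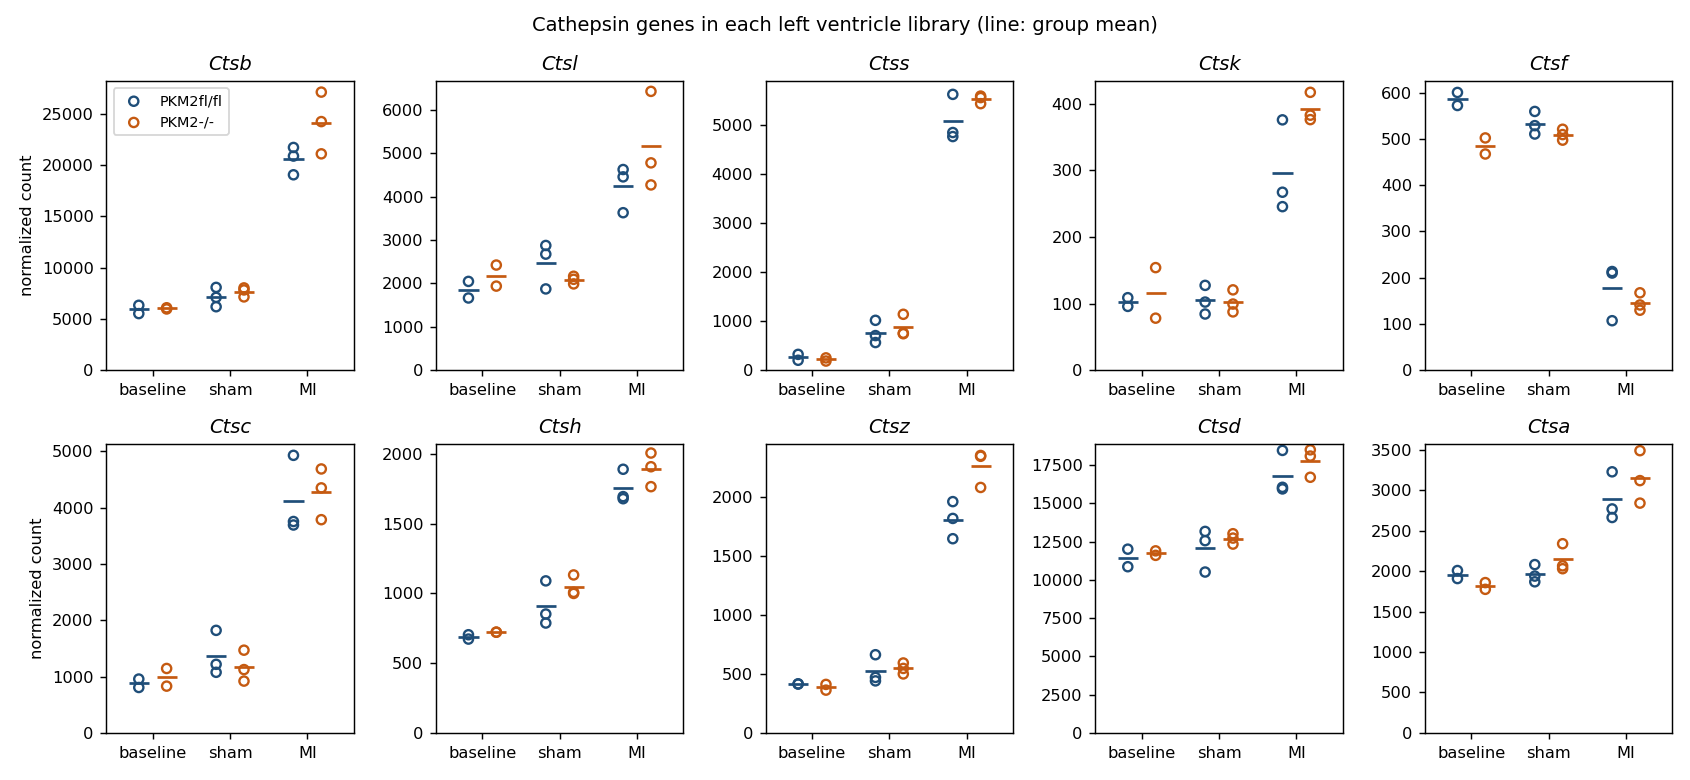
Each panel plots 1 cathepsin gene: normalized count (y axis, from 0) by treatment (x axis), with 1 circle per library, the genotype by colour and a line at the group mean. After MI the circles of 9 genes lie above and those of Ctsf below all sham circles of the same genotype.

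The exopeptidases rose together. Ctsz, a carboxypeptidase that takes off single residues, went from 471, 663 and 441 normalized counts to 1962, 1647 and 1819 in PKM2fl/fl (log2 fold change 1.80 ± 0.13, adjusted p = 1.4e-07, limma). PKM2-/- hearts went from 593, 500 and 547 to 2346, 2353 and 2082 (log2 fold change 2.05 ± 0.13, adjusted p = 4.0e-08). Ctsz had the smallest p of the members in both genotypes and after Ctss the largest log2 fold change.

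Ctsc encodes cathepsin C, or dipeptidyl peptidase I, which activates the granule serine proteases of neutrophils, mast cells and cytotoxic lymphocytes. It had 1217, 1820 and 1076 normalized counts in PKM2fl/fl sham and 3752, 3690 and 4926 in PKM2fl/fl MI (log2 fold change 1.61 ± 0.20, adjusted p = 1.4e-05, limma). The PKM2-/- hearts had 1124, 919 and 1468 after sham and 3784, 4349 and 4684 after MI (log2 fold change 1.89 ± 0.20, adjusted p = 2.3e-06). Of the 10 genes listed as its substrates 6 passed the filter on low values. Of these, 1 was higher and 3 were lower after MI in PKM2fl/fl, and 1 was higher and 1 lower in PKM2-/-. Cpa3, a mast cell carboxypeptidase of the list that is not a serine protease, averaged 33.4 normalized counts in PKM2fl/fl sham and 11.6 in PKM2fl/fl MI. Prtn3, a neutrophil protease, had 3.53, 4.11 and 0.98 after sham and 6.18, 16.1 and 75.0 after MI in PKM2fl/fl, so that its mean after MI rested on the third heart. Ctsg, cathepsin G, was at 0 in all 16 libraries, and Elane, neutrophil elastase, in all but the first PKM2-/- MI library (0.81).

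Ctsh, an aminopeptidase, had 788, 1090 and 852 normalized counts in PKM2fl/fl sham and 1694, 1679 and 1890 in PKM2fl/fl MI (log2 fold change 0.96 ± 0.11, adjusted p = 7.2e-06, limma). In PKM2-/- it had 1000, 1008 and 1133 after sham and 1766, 1908 and 2007 after MI (log2 fold change 0.85 ± 0.11, adjusted p = 1.2e-05). It was just under 2-fold in both genotypes, and leaving out the second PKM2fl/fl sham library brought it past that limit. Scaling to library totals that leave out the rRNA-related loci gave 1.09 in PKM2fl/fl and 1.21 in PKM2-/-, with the median of all genes moved to 0.13 and 0.37. Scaling to the total count gave 1.37 in PKM2-/-, with that median at 0.52.

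The aspartic and the serine cathepsin changed least. Ctsd had 13166, 12561 and 10512 normalized counts in PKM2fl/fl sham and 18458, 15942 and 16049 in PKM2fl/fl MI (log2 fold change 0.48 ± 0.11, adjusted p = 0.0025, limma). PKM2-/- hearts had 12337, 12729 and 13015 after sham and 18089, 18496 and 16704 after MI (log2 fold change 0.48 ± 0.11, adjusted p = 0.0020). Ctsa had 1939, 2082 and 1869 normalized counts in PKM2fl/fl sham and 3229, 2664 and 2770 in PKM2fl/fl MI (log2 fold change 0.55 ± 0.10, adjusted p = 0.00032). In PKM2-/- it had 2066, 2031 and 2340 after sham and 3491, 3120 and 2842 after MI (log2 fold change 0.55 ± 0.10, adjusted p = 0.00025). With libraries scaled to their total count, Ctsl, Ctsd and Ctsa did not pass in PKM2fl/fl (adjusted p = 0.13, 0.55 and 0.37, limma). That scaling moved the median of all genes by -0.17 in PKM2fl/fl and 0.52 in PKM2-/-. Relative to that median Ctsd differed by 0.48 and Ctsa by 0.55 in PKM2fl/fl, and by 0.47 and 0.54 in PKM2-/-.

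Ctsd is uncertain in level. It shares exons on the same strand with Gm49369, a separate gene of the annotation, whose value was 68.6% to 81.1% of that of Ctsd in every library, and reads of the shared exons could have been counted for either or both. Gm49369 had a log2 fold change after MI of 0.34 in PKM2fl/fl (adjusted p = 0.021, limma) and 0.50 in PKM2-/- (adjusted p = 0.0017). Ctsa overlaps exons of Pltp and Neurl2, and Ctsz of Nelfcd, on the opposite strand. These had smaller mean normalized counts of 816, 311 and 394 over all libraries, and whether counting used the strand is not given in the sources used here.

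**Figure D3:**
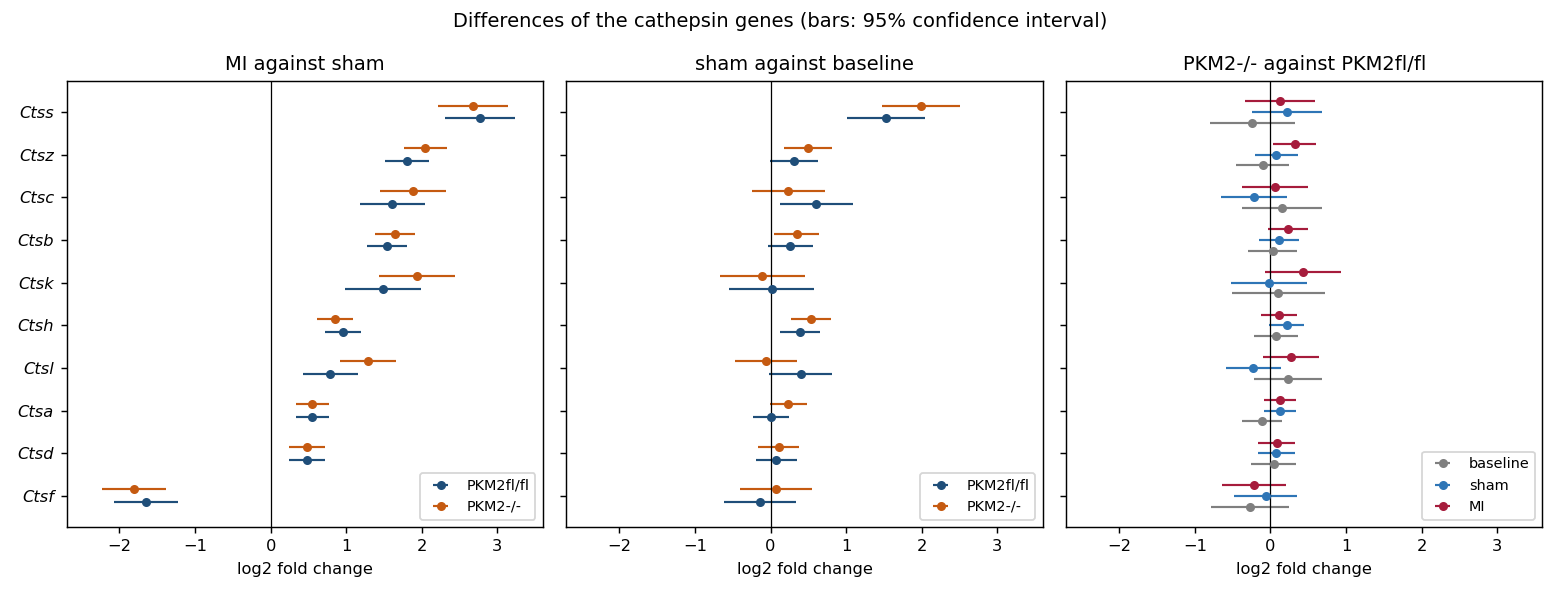
Points give the log2 fold change of each cathepsin gene (x axis) with its 95% confidence interval, for MI against sham and sham against baseline in each genotype and for PKM2-/- against PKM2fl/fl in each treatment. Intervals after MI lie to the right of 0 for 9 genes and to the left for Ctsf, while in the genotype panel only that of Ctsz after MI leaves 0 out, before adjustment for the number of genes.

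Sham surgery itself was compared with baseline to see how much of the level 3 days after an operation was there without infarction. Ctss was higher after sham in both genotypes. Its normalized counts were 323 and 203 in PKM2fl/fl baseline, below the 3 sham values of 707, 1018 and 565 (log2 fold change 1.53 ± 0.24, adjusted p = 0.016, limma). In PKM2-/- they were 252 and 187 at baseline and 1141, 744 and 756 after sham (log2 fold change 1.99 ± 0.24, adjusted p = 0.00073). In PKM2fl/fl 1 member of 10, Ctss, passed, beside 0.190% of all genes, and in PKM2-/- 2 of 10 passed, beside 5.14%. The call in PKM2fl/fl rested on few libraries: the adjusted p of Ctss was 0.17 without the second baseline library, 0.079 without the first sham library, 0.056 without the second sham library and 0.17 when only the 5 libraries compared were fitted. The log2 fold changes in these fits lay between 1.19 and 1.56.

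The second member that passed in PKM2-/- was Ctsh, with 723 and 722 normalized counts at baseline and 1000, 1008 and 1133 after sham (log2 fold change 0.53 ± 0.12, adjusted p = 0.023, limma). Its adjusted p was 0.12 without the first and 0.13 without the second PKM2-/- baseline library and 0.060 without the third sham library, with log2 fold changes of 0.53, 0.53 and 0.47. With total-count scaling the log2 fold change was 0.75 (adjusted p = 0.32). In PKM2fl/fl Ctsh had 673 and 704 at baseline and a log2 difference after sham of 0.39 ± 0.12 that did not pass (adjusted p = 0.27). Ctsz had a log2 difference of 0.50 ± 0.15 in PKM2-/- (adjusted p = 0.072) and 0.31 ± 0.15 in PKM2fl/fl (adjusted p = 0.58). Ctsc in PKM2fl/fl (0.60 ± 0.23, adjusted p = 0.39) and Ctsb in PKM2-/- (0.34 ± 0.14, adjusted p = 0.18) did not pass either. Whether the sham effect differed between the genotypes was tested directly, and no member passed (lowest adjusted p 0.89); over all genes 0 passed in limma and 1294 had an unadjusted p under 0.05.

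PKM2-/- hearts were compared with PKM2fl/fl hearts within each treatment, the comparison that asks what the deletion changed. No cathepsin gene passed at baseline, after sham or after MI. Of all genes 0.00972% (2 genes) passed at baseline, 0.00972% (2 genes) after sham and 0.967% (199 genes) after MI. At an unadjusted p under 0.05, members numbered 0 at baseline, 0 after sham and 1 after MI, and all genes 748, 2047 and 3492. The member was Ctsz, with 1962, 1647 and 1819 normalized counts in PKM2fl/fl MI and 2346, 2353 and 2082 in PKM2-/- MI. The 3 PKM2-/- hearts were all above the 3 PKM2fl/fl hearts (log2 difference 0.32 ± 0.13, 95% interval 0.036 to 0.61, adjusted p = 0.24, limma).

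Ctsk after MI also did not overlap, by a narrow gap, which made 2 of the 10 members, with PKM2-/- higher in both; of all genes 10.7% lay entirely higher and 8.26% entirely lower in PKM2-/-, so the members' count was near that share. For Ctsk the highest PKM2fl/fl heart had 375.6 normalized counts and the lowest PKM2-/- heart 376.0 (log2 difference 0.43 ± 0.24, interval -0.076 to 0.93, adjusted p = 0.38, limma). Ctsb after MI averaged 20547 ± 1361 in PKM2fl/fl and 24147 ± 3010 in PKM2-/- (SD, n = 3 each), with a log2 difference of 0.23 ± 0.12 (interval -0.037 to 0.49, adjusted p = 0.37). After sham no member separated the genotypes, beside 8.27% of all genes entirely higher and 8.28% entirely lower. The smallest unadjusted p was that of Ctsh (log2 difference 0.21 ± 0.11, adjusted p = 0.56). Total-count scaling turned its sign (-0.11) while it moved the median of all genes by -0.33, and relative to that median Ctsh differed by 0.22. At baseline Ctsh was higher and Ctsf, Ctsz and Ctsa were lower in both PKM2-/- hearts than in both PKM2fl/fl hearts, each with an adjusted p of 1. Of all genes 17.7% were entirely higher and 17.2% entirely lower at baseline, so 4 of 10 members was near the share over all genes. With 2 hearts against 2, an exact permutation test cannot give a p below 0.33, and with 3 against 3 none below 0.1.

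Ctsf after MI depended on 1 library. The third PKM2fl/fl MI heart had 107 normalized counts of Ctsf, against 213 and 210 in the other two, and 130, 141 and 167 in PKM2-/-. With all libraries the log2 difference between genotypes was -0.21 ± 0.20 (adjusted p = 0.63, limma), and without that heart it was -0.54 (adjusted p = 0.0085), while the number of all genes that passed went from 199 to 2279. The same heart had the lowest summed level of cardiomyocyte markers of all 16, 145857 normalized counts against 365398 and 372272 in the other two.

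The MI effect was then compared between the genotypes. No member passed, with a lowest adjusted p of 0.62 (limma). Over all genes 0 of 20576 passed in limma and 0 in edgeR, whereas 52 passed at an adjusted p under 0.05 in DESeq2. The edgeR and DESeq2 fits each had their own filter on low values, so the sets of genes tested differed. In limma 1703 genes had an unadjusted p under 0.05. The largest difference among the members was that of Ctsl, whose MI effect was greater in PKM2-/- by 0.49 ± 0.25 on the log2 scale (95% interval -0.028 to 1.02). That of Ctsk was greater by 0.45 ± 0.33 (interval -0.26 to 1.16). For the other 8 members the estimates lay between -0.15 and 0.28. The comparisons of MI with sham, and of the genotypes, use the same libraries.

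The genes around the cathepsins were described from lists, by count and median. Of 12 genes that sort, activate or accompany cathepsins, 7 were higher and 0 lower after MI in each genotype. Over all genes 24.8% were higher and 25.3% lower in PKM2fl/fl, and 28.7% and 28.1% in PKM2-/-, the shares to set beside the list counts below. Lgmn, legumain, which processes several cathepsin precursors to their final form, averaged 1440.5 normalized counts in PKM2fl/fl sham and 5869 in PKM2fl/fl MI (log2 fold change 2.02, adjusted p = 5.8e-08, limma). Grn, progranulin, rose with a log2 fold change of 1.60, and Glb1, the beta-galactosidase that cathepsin A protects, of 0.71. M6pr, the smaller mannose 6-phosphate receptor, rose with 0.78, whereas Igf2r, the larger one, had 6891 after sham and 8031 after MI and did not pass (adjusted p = 0.054).

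Cystatins and other inhibitors of cathepsins moved in both directions, in PKM2fl/fl in numbers near the shares over all genes. Of 21 listed, 20 were in the table and 10 passed the filter on low values; 3 were higher and 3 lower after MI in PKM2fl/fl, and 5 were higher and 1 lower in PKM2-/-. Cstb, cystatin B, an inhibitor inside the cell, averaged 154 normalized counts in PKM2fl/fl sham and 603 in PKM2fl/fl MI (log2 fold change 1.96). Cst3, cystatin C, the abundant secreted inhibitor, averaged 6948 and 5364 (log2 fold change -0.38, adjusted p = 0.037), and in PKM2-/- it did not pass (-0.20, adjusted p = 0.25). Its MI and sham libraries overlapped in both genotypes. Ctla2a, which resembles a cathepsin propeptide, rose with 1.31 in PKM2fl/fl and 1.59 in PKM2-/-. Ctla2b, its relative, rose with 1.02 and 1.14, and was the only gene of the list to pass between the genotypes after MI (134.7 normalized counts on average in PKM2fl/fl, 272.8 in PKM2-/-, adjusted p = 0.032). When the MI effect was compared between the genotypes, 0 genes of the list passed. After sham Ctla2b had 64.0, 57.5 and 69.6 in PKM2fl/fl and 143, 120 and 108 in PKM2-/-. These did not overlap, beside 8.27% of all genes entirely higher, but Ctla2b did not pass there. At baseline it had 54.2 and 60.4 in PKM2fl/fl and 64.1 and 66.0 in PKM2-/-, and did not pass. Ctla2a and Ctla2b are similar in sequence and may share reads.

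Of 14 other cathepsin and related protease genes only 4 had enough reads to be tested, and 2 were higher after MI in each genotype: Ctse, with 16.5 normalized counts on average in PKM2fl/fl sham and 62.5 after MI, and Napsa, with 13.4 and 110.9. Ctso, a cysteine cathepsin, averaged 413 and 433 and did not pass. Ctsw, the cathepsin of cytotoxic lymphocytes, had 29.7 and 46.6 and did not pass.

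Other lysosomal genes were measured beside them. Of 23 lysosomal hydrolases other than cathepsins, 18 were higher and 3 lower after MI in each genotype, with median log2 fold changes of 0.82 in both, and Gla, Lipa and Gusb had the smallest p in PKM2fl/fl (log2 fold changes 2.38, 1.47 and 1.75). Gaa, the acid alpha-glucosidase that breaks down glycogen, was among those that fell (-0.78 in PKM2fl/fl, -1.16 in PKM2-/-). Of 16 tested genes of the lysosomal membrane and proton pump, 11 were higher and 0 lower in PKM2fl/fl, and 13 and 0 in PKM2-/-. Among 5 regulators, Tfeb, a master transcription factor of lysosomal genes, fell with -0.41 in PKM2fl/fl and -0.63 in PKM2-/-, and Tfe3 and Tfec, of the same family, rose with 0.63 and 2.28 in PKM2fl/fl. Mcoln1, a lysosomal calcium channel, averaged 403 and 390 and did not pass.

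**Figure D4:**
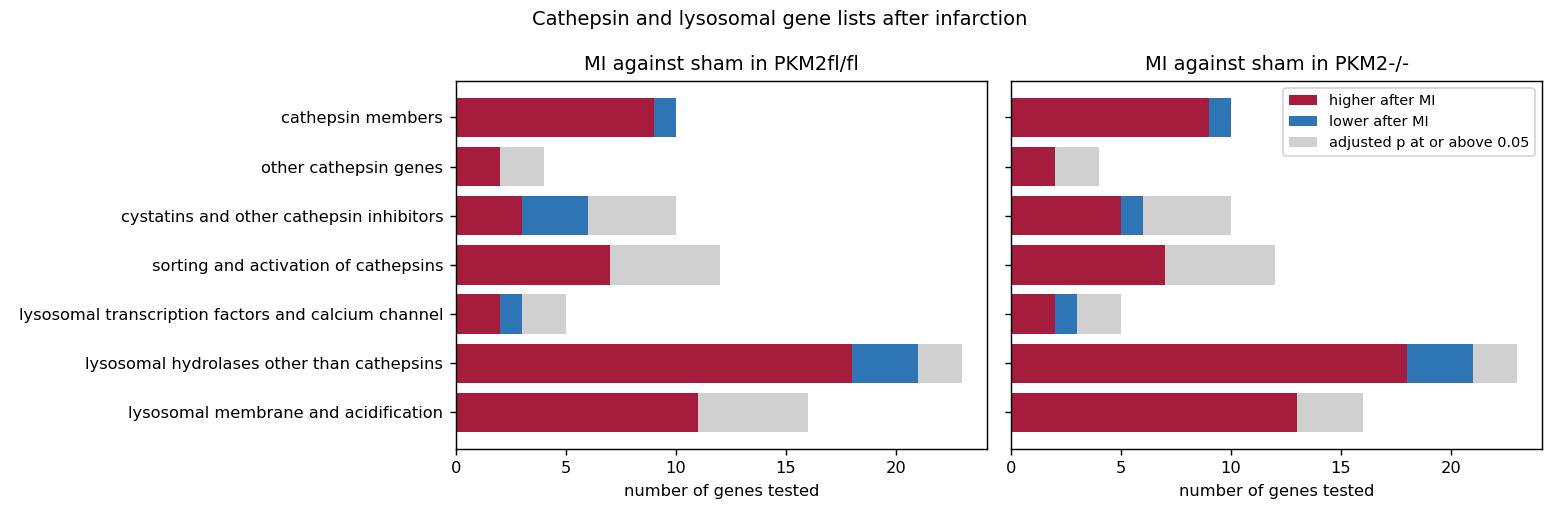
Horizontal bars count, for 7 gene lists, the tested genes (x axis) that were higher, lower or did not pass (adjusted p at or above 0.05) after MI in PKM2fl/fl (left) and PKM2-/- (right). Of the 23 hydrolases 18 were higher in each panel, and of the 10 cathepsin members 9.

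Markers of several cell types also changed after MI, some higher and some lower. Of 12 macrophage and monocyte markers, 10 were higher and 2, Timd4 and Lyve1 of resident macrophages, lower after MI in each genotype. Their summed normalized count was 5456 to 6595 in PKM2fl/fl baseline, 7733 to 13660 after sham and 25800 to 42504 after MI, and 5481 to 7406, 10742 to 13122 and 37660 to 40647 in PKM2-/-. None of the 12 was at 0 in a whole group. After sham in PKM2-/-, 4 of them passed, all higher, beside 5.14% of all genes in either direction. In PKM2fl/fl 0 passed after sham, beside 0.190% of all genes. The median log2 fold changes after sham were 0.89 in PKM2fl/fl and 1.04 in PKM2-/-. The part of macrophages in the rise of the cathepsins was not tested.

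Of 7 neutrophil markers 5 were tested, and 2 were higher after MI in each genotype. Their sum was 82.4 to 187 in PKM2fl/fl baseline, 224 to 1320 after sham and 1232 to 2147 after MI, and 132 to 167, 977 to 1258 and 3533 to 4530 in PKM2-/-, with Ly6g and Mpo at 0 in both baseline groups. All 5 passed as higher after sham in PKM2-/-, beside 5.14% of all genes in either direction. In PKM2fl/fl 0 passed after sham, beside 0.190% of all genes. Their median log2 fold changes after sham were 2.82 in PKM2fl/fl and 3.41 in PKM2-/-. Of 6 fibroblast markers 4 were higher and 1 lower after MI in each genotype, and their sum went from 15566 to 25146 after sham to 79195 to 85322 after MI in PKM2fl/fl, and from 15874 to 25131 to 63401 to 87690 in PKM2-/-. All 7 cardiomyocyte markers were lower after MI in both genotypes, with sums of 905626 to 1013280 after sham and 145857 to 372272 after MI in PKM2fl/fl, and 825648 to 1022840 and 163807 to 216781 in PKM2-/-. At baseline Myh6, a cardiac myosin heavy chain, was the highest of the list, with 428130 normalized counts on average in PKM2fl/fl. The atrial genes were present at levels that differed between libraries of a group: Myl7 had 401, 90.3 and 405 in PKM2fl/fl sham, and Sln 170, 28.7 and 208. Of the remaining lists after MI in PKM2fl/fl, 2 of 4 tested dendritic cell markers were higher and 1 lower, 1 of 2 lymphocyte markers higher, 1 of 4 mast cell markers higher and 3 lower, 3 of 5 endothelial and 3 of 4 smooth muscle markers higher, 1 of 4 atrial markers higher and 0 of 5 erythroid markers past the test; 0 of 3 adipocyte markers passed the filter. The part of these cells in the cathepsin values was not tested.

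Ctss and Ctsf are shown beside the marker sums of the same hearts. The highest Ctss of PKM2fl/fl MI, 5630, came from the heart with the highest macrophage marker sum, 42504, and the lowest Ctsf, 107, from the same heart. Among the sham hearts the highest Ctss of PKM2fl/fl, 1018, and of PKM2-/-, 1141, also came from the hearts with the highest sums, 13660 and 13122. In PKM2-/- MI this was not so, though the Ctss values there were close (5595, 5564 and 5440), so their order says little. The highest Ctss there, 5595, came from the heart with the lowest macrophage marker sum, 37660, and the lowest Ctsf, 130, from the same heart, which had the highest cardiomyocyte marker sum of the group, 216781. Lyz2 was the largest part of these macrophage sums, with 12462, 16817 and 15415 in the PKM2-/- MI hearts. Single markers differed in order: in the first of these hearts Cd68 was highest (2016, 1854 and 1520.5) and Ccr2 lowest (1820, 2176.5 and 2421). In PKM2fl/fl MI the second heart had slightly more Ctss than the first (4851 against 4769) with a lower macrophage sum (25800 against 30392).

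**Figure D5:**
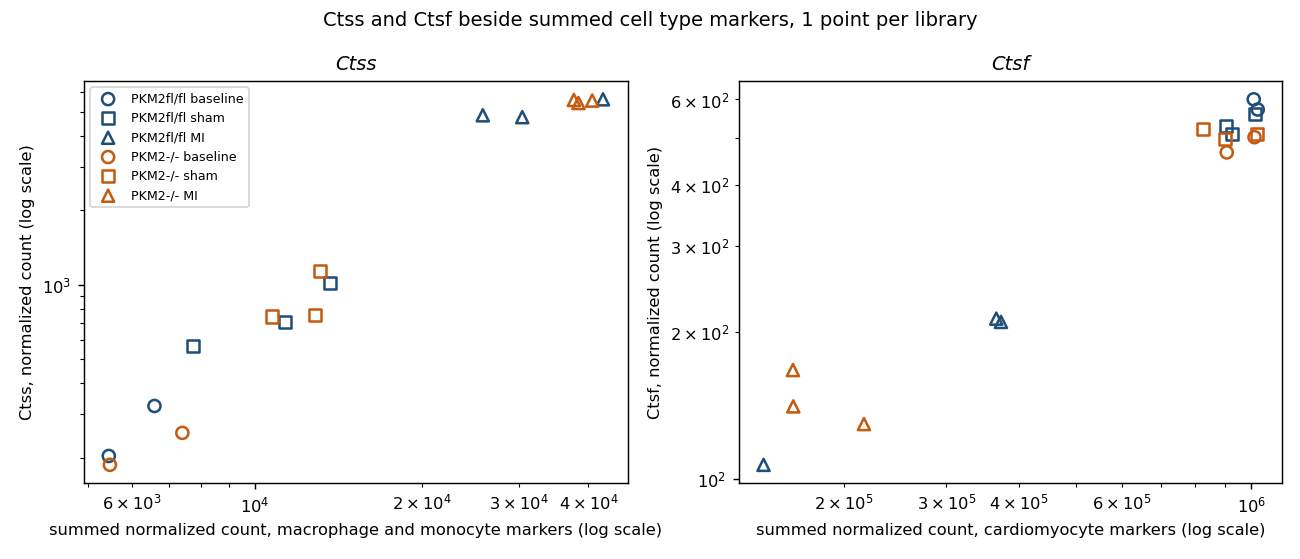
Each point is 1 library, on log scales, with the genotype by colour and the treatment by shape. The left panel plots the normalized count of Ctss (y axis) against the summed macrophage and monocyte markers (x axis), and the right panel that of Ctsf against the summed cardiomyocyte markers; MI hearts lie at the upper right for Ctss and at the lower left for Ctsf, with the third PKM2fl/fl MI heart leftmost in the right panel at 145857.

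The genes most like each member were found by Pearson correlation of log2(value + 1) over the 16 libraries, leaving the members out; this describes patterns set mostly by the groups. Nearest to Ctsf were Ckm (r = 0.990), the creatine kinase of muscle, Tmem143 (0.988) and Fkbp4 (0.988). Nearest to Ctss were Top2a (0.995), a topoisomerase of dividing cells, Fcgr4 (0.994), an Fc receptor of myeloid cells, and Laptm5 (0.993), a lysosomal membrane protein of blood cells. Cotl1, an actin-binding protein, was the nearest to both Ctsb (0.997) and Ctsz (0.996), followed by Vim and Iqgap1 for Ctsb and by Tgfbi and Txndc5 for Ctsz.

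For Ctsc the nearest were Ostc, Ikzf1, a transcription factor of blood cells, and Pla2g4a (0.992, 0.991 and 0.990). For Ctsh they were Unc93b1, a carrier of Toll-like receptors, Lox and Bcat1 (0.990, 0.988 and 0.987). Ctsl was nearest to Tmem183a (0.974) and Ppbp, and Ctsk to Cchcr1 (0.979), Gm44170 and E230032D23Rik. Ctsa was nearest to Ap2m1 (0.983), Zyx and Plat, and Ctsd to C1rl (0.983), Adam8 and the overlapping Gm49369 (0.974). Among the members themselves the closest pairs were Ctsb with Ctsz (r = 0.995), Ctss with Ctsh (0.974) and Ctsc with Ctsz (0.974).

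Promoter sequence was read for the members that stand for the main patterns: Ctss and Ctsc, which rose by over 2-fold, Ctsd, the highest in level, and Ctsf, which fell. RefSeq windows (GRCm38.p6) were at hand for 8 of the 10 members. Each sequence below runs 5′ to 3′ on the gene's strand from 250 bases before the transcription start to 30 after it. Capitals mark matches, on either strand, to CACGTG, the core bound by transcription factors of the TFEB family, and TCACGTG, its extension by 1 base that contains it; to GAGGAAGT, a sequence bound by the myeloid factor PU.1; and to a pair of GAAA parted by any 2 bases, a sequence of interferon regulatory factors. The windows lie at chr3:95526536-95526815 on the plus strand, chr7:88277835-88278114 on the plus strand, chr7:142387798-142388077 on the minus strand and chr19:4854915-4855194 on the plus strand.
Ctss: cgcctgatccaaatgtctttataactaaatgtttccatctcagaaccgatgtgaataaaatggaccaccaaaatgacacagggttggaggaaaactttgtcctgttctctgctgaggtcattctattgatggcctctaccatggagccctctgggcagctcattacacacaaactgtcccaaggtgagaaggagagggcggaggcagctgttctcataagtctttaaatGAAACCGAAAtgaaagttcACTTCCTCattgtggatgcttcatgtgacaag
Ctsc: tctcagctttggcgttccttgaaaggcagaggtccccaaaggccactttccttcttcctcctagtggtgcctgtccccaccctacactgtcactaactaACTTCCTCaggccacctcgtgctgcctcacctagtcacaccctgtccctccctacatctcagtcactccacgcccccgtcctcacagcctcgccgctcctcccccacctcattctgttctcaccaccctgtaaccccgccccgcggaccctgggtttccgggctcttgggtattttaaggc
Ctsd: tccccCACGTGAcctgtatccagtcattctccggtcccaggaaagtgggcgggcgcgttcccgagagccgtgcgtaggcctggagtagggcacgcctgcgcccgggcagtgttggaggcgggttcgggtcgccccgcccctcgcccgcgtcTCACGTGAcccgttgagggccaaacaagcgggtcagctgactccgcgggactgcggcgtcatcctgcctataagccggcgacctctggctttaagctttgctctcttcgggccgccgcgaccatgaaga
Ctsf: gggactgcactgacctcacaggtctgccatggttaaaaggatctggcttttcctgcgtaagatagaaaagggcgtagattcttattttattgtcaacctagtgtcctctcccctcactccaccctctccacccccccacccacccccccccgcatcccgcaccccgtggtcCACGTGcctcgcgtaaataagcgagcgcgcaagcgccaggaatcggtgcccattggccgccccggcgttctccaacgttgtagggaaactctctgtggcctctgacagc

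CACGTG was found in the windows of 4 of the 8 members, Ctsa, Ctsd, Ctsl and Ctsf, and in 7.15% of all 32851 windows, searched over 300 bases. TCACGTG was found in Ctsa and Ctsd and in 3.77% of all windows. GAGGAAGT was found on the opposite strand in Ctss and Ctsc and in 3.20% of all windows, and the GAAA pair in Ctss and in 3.44%. The members with CACGTG included the one that fell as well as 3 that rose by less than 2-fold in PKM2fl/fl. Of these, Ctsl rose 2.44-fold in PKM2-/-. Ctsb and Ctsh had no window and could not be searched. None of the 4 motifs was found in the windows of Ctsk and Ctsz. A match of letters is a description and was not tested as a binding site.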

How the data were processed

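RNA was sequenced from 16 left ventricles, 1 library per mouse. Per the paper's methods, rRNA-depleted, paired-end reads were trimmed with PRINSEQ, aligned to mm10 with HISAT2, counted with featureCounts and scaled with DESeq2; versions, strand use and the treatment of reads shared by genes are not given in the sources used here. The authors deposited a table of normalized counts, a signal per gene equal to the count divided by the DESeq2 size factor of the library. Whole reads were recovered from it for 100% of values (tolerance 0.1 read), so edgeR and DESeq2 could be run on reads. The same table holds the authors' own comparison columns (a mean, fold changes, standard errors, statistics and p-values), which were not used; 0 columns of per-sample values were left out.

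Genes with a mean of at least 10 over 16 libraries (20576 of 55492) were tested on log2(value + 1) with limma 3.58.1 (R 4.3.3), with trend, in 1 fit of the 6 groups, and p-values were adjusted by Benjamini-Hochberg within each comparison. A gene passed at an adjusted p under 0.05; a second rule also asked for 2-fold. Fold changes are on the log2(value + 1) scale, which understates changes of low genes. Each mouse is a separate sample by the labels. The scripts were tested on simulated data.

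Members, lists and tests were chosen with earlier results of these data known. Named are the 10 members, up to 3 genes per list with the smallest p after MI in PKM2fl/fl, listed genes given for their role, the 3 genes most like each member, and Pkm; not every gene that these rules name is reported here. Transcript lengths and overlaps of genes came from GENCODE vM39 on another build (GRCm39), so lengths are approximate; positions and promoters came from RefSeq on GRCm38.p6, the build that mm10 names. Alternatives were total-count scaling, TMM, a pseudocount of 0.1, no filter, library totals that leave out the rRNA-related loci, a fit of only the groups compared, a replicate block, library weights, edgeR 4.0.16, DESeq2 1.42.0 and leaving out each library.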

Additional observations from a re-analysis of the deposited data

Results flagged for a closer look

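Ctsz was singled out because PKM2-/- hearts lay entirely below PKM2fl/fl hearts at baseline and entirely above them after MI. At baseline the normalized counts were 411 and 363 in PKM2-/- and 414 and 416 in PKM2fl/fl, a log2 difference of -0.10. After MI they were 2346, 2353 and 2082 in PKM2-/- and 1962, 1647 and 1819 in PKM2fl/fl, a log2 difference of 0.32. Of all genes, 17.2% lay entirely lower in PKM2-/- at baseline and 10.7% entirely higher after MI. The exact permutation p-values, two-sided, were 0.33 and 0.1, each the smallest its design allows, and they restate the separation for which the gene was picked. The difference between both effects was 0.43 ± 0.21 (SE; 95% interval -0.027 to 0.88) and did not pass (adjusted p = 0.57, limma), and 5 of all genes passed that test.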

How the results depend on the processing

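All 10 members passed after MI in PKM2-/- under each of 10 alternative settings and without any 1 library, and in PKM2fl/fl under 9 of the settings and without any 1 library; with total-count scaling 7 passed, and Ctsl, Ctsa and Ctsd had log2 fold changes of 0.61, 0.38 and 0.30. That scaling turned the genotype difference of Ctsh after sham to -0.11 (from 0.21) and that of Ctsf after MI to 0.15 (from -0.21), while it moved the median of all genes by -0.33 and 0.36; relative to these medians they were 0.22 and -0.21. By the rule that also asked for 2-fold, 6 to 7 members passed after MI in PKM2fl/fl and 7 to 9 in PKM2-/- over the 10 settings. Members past the test after sham in PKM2fl/fl numbered 0 by both rules when only the groups compared were fitted, and 0 to 1 without any 1 library. In PKM2-/- they numbered 1 with total-count scaling and 1 to 2 without any 1 library. For genotype after MI they numbered 0 to 1 without any 1 library. Over all genes, counts past the test were as follows where they moved by over 1.5 times. After MI in PKM2fl/fl 6017 passed with total-count scaling (10299 otherwise). Between genotypes at baseline (2 genes) there were 44 with total-count scaling, 9 with a pseudocount of 0.1, 42 with only the groups compared, 1 with the replicate block, 4 with library weights, 1 in edgeR, 17 in DESeq2 and 0 to 40 without any 1 library. After sham (2 genes) there were 114 with total-count scaling, 0 with totals without rRNA-related loci, 0 without the filter, 9 with only the groups compared, 0 with the block, 92 with library weights, 273 in DESeq2 and 0 to 90 without any 1 library. After MI (199 genes) there were 119 with total-count scaling, 6 with only the groups compared, 75 with the block, 2040 with library weights, 1033 in DESeq2 and 11 to 2279 without any 1 library. For sham in PKM2fl/fl (39 genes) there were 94 with total-count scaling, 1 with only the groups compared, 24 with the block, 749 with library weights, 356 in DESeq2 and 7 to 282 without any 1 library. For sham in PKM2-/- (1058 genes) there were 588 with total-count scaling, 665 with only the groups compared and 316 to 979 without any 1 library. For the difference of the MI effects (0 genes) there were 52 with total-count scaling, 1 with library weights, 52 in DESeq2 and 0 to 486 without any 1 library. Libraries with the same replicate number did not deviate together (median r of -0.027 over 36 pairs, 1 of them over 0.1, against 0.013 over 70 pairs of different numbers), so the numbers were not taken to pair the mice; the replicate block left 10 and 10 members past the test after MI, 1 and 2 after sham and 0 between genotypes. Baseline groups of 2 limit the sham comparisons, and a library left out of them leaves a lone sample assumed to vary like the others.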
